A study of Xenopus tropicalis with 45 samples.

Results

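Hdac1 is a class I histone deacetylase, an enzyme that takes acetyl groups off lysines of histone tails and acts within corepressor complexes such as NuRD and Sin3. In Xenopus it is loaded into the egg, so the protein is present before the embryo starts to transcribe its own genome around the mid-blastula transition. Sox3, an HMG-box transcription factor that is also supplied maternally, binds regulatory DNA of the blastula and gastrula. Acetylated histone H3 marks active promoters and enhancers, and a region can carry Hdac1 and acetylated H3 at the same time.

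The 404 regions described here are the Hdac1 peaks that were present throughout early development of Xenopus tropicalis. Each is a peak of the early gastrula (st10.5) list that shared at least 1 bp with a peak of the late blastula (st9) list and at least 1 bp with a peak of the mid-blastula (st8) list. They made up 1.78% of the 22681 peaks at st10.5. Beneath them lay 409 of the 1340 peaks at st8 (30.5%) and 424 of the 5136 peaks at st9 (8.26%). The other st10.5 peaks fell into 3772 that were shared with st9 only, 297 shared with st8 only and 18208 found at st10.5 alone. The 404 entries covered 397 distinct intervals, because 14 entries shared their interval with another kept entry.

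The Hdac1 lists came from chromatin immunoprecipitation and sequencing (ChIP-seq) of untreated wild-type whole embryos, with 2 replicates merged per stage after a reproducibility filter. Other peak lists held Hdac2 (st9 and st10.5, 1 library each), Sox3 (st9), and Hdac1 in embryos kept in DMSO or in 100 nM trichostatin A (TSA, which blocks zinc-dependent deacetylases) at st9 and st10.5, with 1 library each. Pan-acetylated H3 (pan-H3Kac) was profiled at st10.5 in whole embryos and in DMSO-treated animal cap (AC) and vegetal mass (VG) explants. RNA was sequenced at st10.5 from AC and VG explants, with 2 replicates per group, in an experiment with TSA (100 nM) or DMSO and in a separate one with valproic acid (VPA, 10 mM, another inhibitor) or water. Treatment began in whole embryos at the 4-cell stage, and explants were cut at the late blastula, so a treated explant had been exposed before it was isolated. The AC forms ectoderm and the VG mainly endoderm. The 16 RNA libraries held between 16892300 and 54350300 expected counts (to 6 digits). In the second AC libraries with DMSO and with TSA, 10 genes took 31.8% and 36.2% of the counts, against 2.64% to 4.85% in the other 14 libraries, which lowers the TPM (transcript abundance scaled to a fixed total per library) of every other gene in those 2 libraries. The defining ectoderm markers foxi1 and dlx3 were at 0 in both VG libraries with DMSO. In summed TPM, 7 AC markers reached 1921 to 2970 in AC DMSO libraries and at most 236 in VG libraries, and 9 endoderm markers 5459 to 8145 in VG libraries and 53.4 to 110 in AC control libraries. The 7 mesoderm markers summed to 751 to 1306 TPM in VG libraries, and 5 germ plasm markers to 2307 to 5960 in VG and 77.7 to 105 in AC libraries.

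The study designed ChIP-qPCR primers at genes of the kept peaks. Those for 6 genes that recur below are shown, each 5′ to 3′, because they are the sequences with which Hdac1 was measured at these loci. Their position was not located here, so for most it is not known whether an amplicon lies within the kept peak. For snai1 both kept peaks lay outside the gene span (chr10:36199149-36202500). An amplicon in its intron would therefore lie in neither. For foxi4.2 the kept peak described below lay more than 1 kb outside the gene span (chr1:18302343-18304330). An amplicon within 1 kb of either end of that gene would lie outside this peak.
snai1 intron forward: cgcaccattagcaattcatga
snai1 intron reverse: ggaagggcaatctaaacaag
insm2 exon forward: agtgtcccgttgagtttgct
insm2 exon reverse: ctgggagatggtgctgatcg
sp8 downstream forward: atgtgctaagtggggctcat
sp8 downstream reverse: ggacactcagtggtcactgt
hhex promoter forward: ccgtacggagaggtgacatg
hhex promoter reverse: tgacagagcaggaagtggct
foxa4 intron forward: atcagcacttttgtgtcctt
foxa4 intron reverse: actgtttggggttggaatg
foxi4.2 promoter forward: agggtaacggtgcgcacaca
foxi4.2 promoter reverse: gcagtgccagacaggggaag

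The Hdac1 fold enrichment over input, which the peak caller gives for the merged replicates, chose the members and is described without a test. Over the kept peaks its median stood at 7.04 (st8), 8.16 (st9) and 8.88 (st10.5). At st10.5 it ran from 3.91 to 22.6, and the middle 50% of peaks lay between 6.96 and 11.6. Individual peaks followed different courses. The highest of the 3 folds was that of st8 for 67 peaks, of st9 for 137 and of st10.5 for 200. The fold rose from stage to stage at 111 peaks (27.5%) and fell from stage to stage at 27 (6.68%). Each stage has its own libraries and the folds were not scaled between lists, so these courses also compare libraries. At st9 alone, the median fold at the kept peaks was 8.16 in the untreated list. It was 15.6 in the single-library DMSO list, over 394 peaks. The kept peaks had a median width of 1175 bp, against 1014.5 bp for peaks shared with st9 only and 701 bp for peaks at st10.5 alone, and the median st10.5 folds of those classes were 8.36 and 5.42. Just inside the rule, the smallest overlaps with an earlier peak were 4 bp and 26 bp. Just outside it, the nearest st8 peaks lay 153 bp and 173 bp from a peak of the st9 and st10.5 class.

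**Figure D1:**
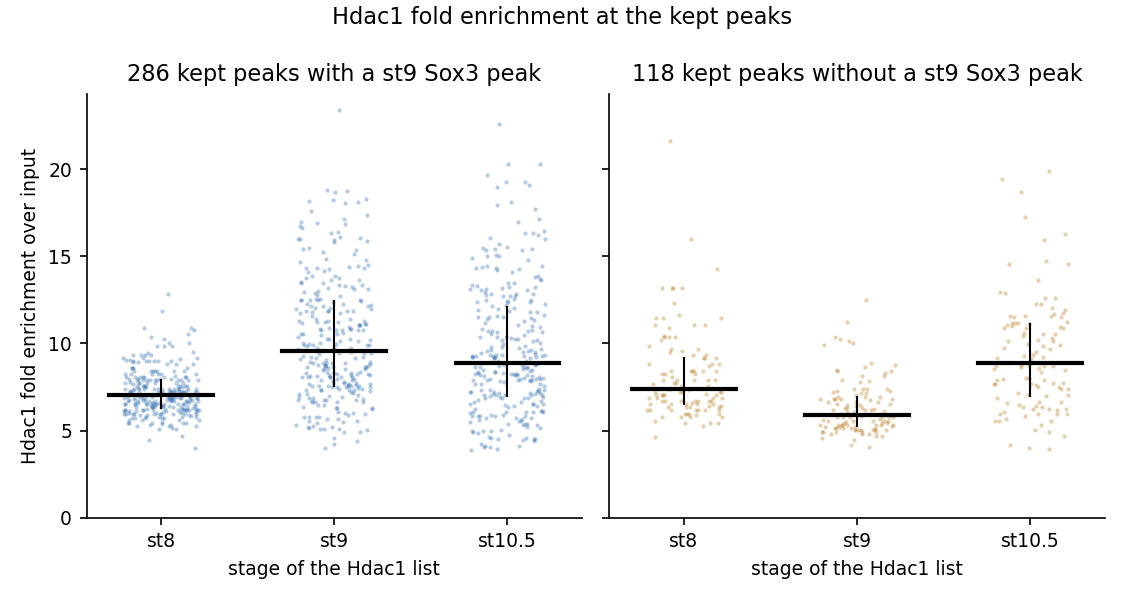
Hdac1 fold enrichment over input (vertical axis) of the kept peaks at st8, st9 and st10.5 (horizontal axis), each from the merged replicates of a stage, with 1 point per peak, the median as a thick bar and the quartiles as a thin line, for the 286 peaks with Sox3 (left) and the 118 without (right). The medians with Sox3 are 7.04, 9.54 and 8.91, and those without 7.39, 5.88 and 8.87.

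The summit, the position of highest signal, mostly stayed in place. It lay within 100 bp of the st8 summit at 269 kept peaks (66.6%) and within 100 bp of the st9 summit at 310 (76.7%). Both held at 245 peaks (60.6%). At 53 peaks (13.1%) the st8 summit was over 500 bp away, so that a shared base pair there joined summits at separate positions. Among peaks shared with st9 only, 84.3% had their st9 summit within 100 bp.

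The kept peaks were spread over the genome. Each of the 10 chromosomes held between 24 (chromosome 9) and 55 (chromosome 8) of them, or 1.26% to 2.48% of its st10.5 peaks, and 1 lay on an unplaced scaffold. The median distance from a kept summit to the next was 411290 bp, and 77 had another within 10 kb. Of the 403 on chromosomes, 224 summits (55.6%) were inside the span of a gene, against 52.6% for peaks shared with st9 only and 60.1% for peaks at st10.5 alone. Only 111 (27.5%, Wilson 95% interval 23.4% to 32.1%) were no further than 1 kb from a gene's start or end, against 20.3% for peaks shared with st9 only, 36.3% for those shared with st8 only and 38.3% for those at st10.5 alone. The gene table gives spans without strand or exons, so a start could not be told from an end, nor an exon from an intron. These intervals, and those on all shares that follow, cover counting error only.

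Of the 10 kept peaks with the highest fold at st10.5, 3 had their summit inside a gene span. The highest fold (22.6) was at chr10:6061308-6062301, 4877 bp from cass4, a scaffold protein of the Cas family, where the st8 fold was 7.39 and the st9 fold 15.4. A fold of 20.3 was measured within LOC101730723 (chr6:153130937-153131495) and at chr8:2871160-2872494, where no gene lay within 10 kb. The peak beside ptf1a, a bHLH factor of pancreas and neural tissue, had folds of 11.6, 10.4 and 19.9 from st8 to st10.5 (chr6:26466555-26468572), with neither Sox3 nor explant acetylation. Of the next 6, 3 had no gene within 10 kb (chr9:90738098-90740113, chr8:145876589-145877797 and chr3:152112062-152114533, with folds of 19.7, 19.4 and 19.3). The others were in efna1 (19.2), which encodes an ephrin ligand, in insm1 (19.1), a zinc finger factor of neuroendocrine cells, and 2682 bp from myef2 (18.96). Of these 10 peaks, 8 were in the Sox3 list.

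The 5 kept peaks with the highest fold at st8 and the 5 at st9 are described next. At st8 the highest fold was in slc4a2, an anion exchanger (chr6:1006749-1010077), where it was 21.6 and then 10.3 at st9 and 10.53 at st10.5. It was followed by a site at chr3:801425-803159 with no gene within 10 kb (16.01), by arx, a homeobox gene of the forebrain (chr2:40691910-40692606, 14.3), and by LOC100486443 and ndel1 (13.2 each). None of these 5 was in the Sox3 list. At st9 the leading peak was in tet3, which encodes a dioxygenase of methylated DNA (chr3:121183127-121185707), with folds of 8.44, 23.4 and 8.77 from st8 to st10.5. It was followed by peaks at mir200a (18.8), in stard13 (18.7), near klf17 (18.7) and at chr8:95147591-95149108 (18.3). All 5 of these were in the Sox3 list, which comes from the same stage. Among all kept peaks 70.8% were in that list. These few regions were ranked by folds that chose the members, so no difference between the stages was tested.

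The course of the fold also differed between kept peaks with and without Sox3. These folds chose the members, so this too is described without a test. The 286 with Sox3 had median Hdac1 folds of 7.04 (st8), 9.54 (st9) and 8.91 (st10.5), while the 118 without had 7.39, 5.88 and 8.87. The medians were therefore close at st8 and st10.5 and apart at st9, the stage of the Sox3 sample. Acetylated H3 of whole embryos covered 79.0% of peaks with Sox3 and 53.4% of those without, AC acetylation 58.4% and 44.1%, and VG acetylation 58.4% and 42.4%. The peaks with Sox3 were also wider (median 1297.5 bp against 1011 bp), and the part of width in these shares was not tested.

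The kept peaks nearly all overlapped peaks of Hdac2, the close paralogue of Hdac1, as did the classes most like them. At st9, 403 of 404 (99.8%) overlapped an Hdac2 peak, and at st10.5 all 404 did. The shares were 98.4% and 99.7% for peaks shared with st9 only, and 59.0% and 95.2% for those at st10.5 alone. Their median Hdac2 fold was 12.9 at st9 and 14.96 at st10.5. Hdac2 lists come from single libraries without a reproducibility filter, so they are more permissive than the Hdac1 lists.

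Sox3 was less frequent at the kept peaks than at peaks shared with st9 only. It covered 286 of the kept peaks (70.8%, 66.2% to 75.01%) and 83.96% of the st9 and st10.5 class, a difference of −13.2 points (95% interval −17.9 to −8.78). The difference was −14.2 points among peaks of like st10.5 fold and −15.2 points among peaks of like width. Sox3 was more frequent at the kept peaks than at those shared with st8 only (16.5%, a difference of 54.3 points) and those at st10.5 alone (27.7%, 43.1 points). At like fold these differences were 48.9 points and 28.4 points, and at like width 51.8 and 37.6 points. Both of these classes lack an Hdac1 peak of the st9 list by definition, and st9 is the stage of the Sox3 sample. Where a kept peak overlapped a Sox3 peak their summits were close, at a median distance of 44.5 bp.

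Acetylation in the explants differed from that of the st9 and st10.5 class in the VG. VG acetylation covered 53.7% of the kept peaks and 42.8% of that class, a difference of 10.95 points (5.82 to 16.005), which was 11.4 points when both classes were held to like fold, 6.69 points (1.44 to 11.9) when the fold limit was put on the st9 and st10.5 class alone, and 7.46 points (0.265 to 14.5) at like width. AC acetylation covered 54.2% against 60.3%, a difference of −6.05 points (−11.2 to −1.01), and its size depended on the peaks compared. It was −2.67 points (−8.56 to 2.96) with both classes held to like fold, −9.85 points (−15.1 to −4.70) with the fold limit on the st9 and st10.5 class alone, and −9.23 points (−16.4 to −2.25) at like width. In whole embryos the shares were 71.5% and 70.7%, with an interval for the difference from −4.00 to 5.24 points around 0.80. With the fold limit on the st9 and st10.5 class alone that difference was −3.21 points, and at like width −0.54 points, both with intervals that hold 0. The authors had downsampled the second explant replicates to 25% of their reads to bring the depths level. After that, the mapped reads they report were somewhat higher in both AC DMSO libraries than in both VG DMSO libraries. The part of this difference in the AC and VG lists was not tested.

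**Figure D2:**
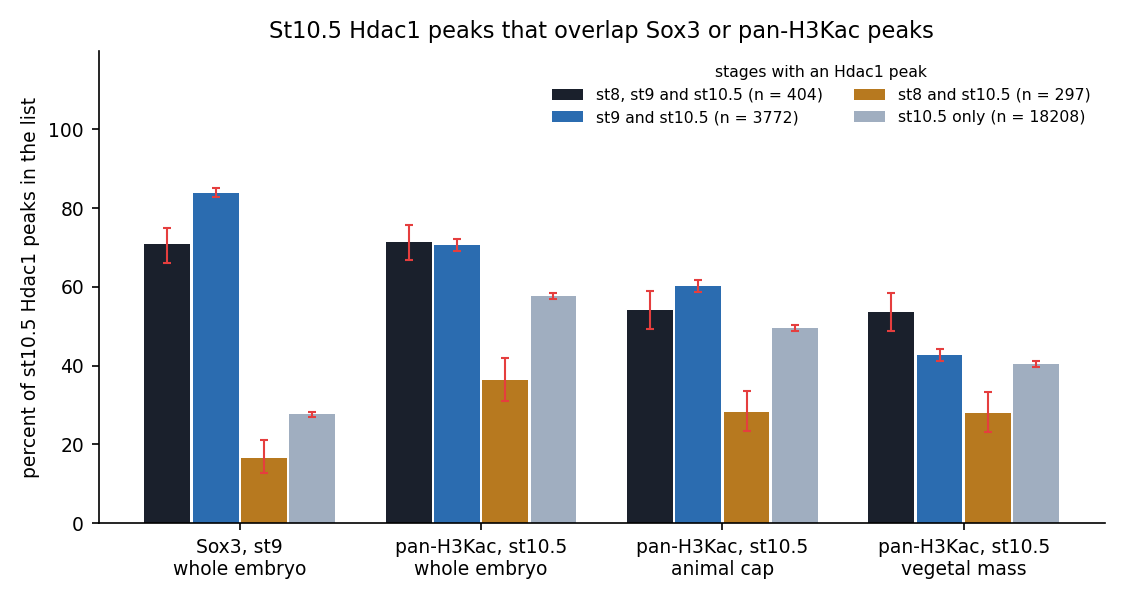
Percent of Hdac1 st10.5 peaks (vertical axis) of each class that overlap a peak of the Sox3 list or of a pan-H3Kac list (horizontal axis), with Wilson 95% intervals as red error bars. Sox3 covers 70.8% of the kept peaks and 83.96% of those shared with st9 only, and VG acetylation 53.7% and 42.8%.

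By tissue, 146 kept peaks (36.1%) were acetylated in both AC and VG, 73 (18.1%) in the AC only, 71 (17.6%) in the VG only and 114 (28.2%) in neither. Among peaks shared with st9 only, 30.6% were acetylated in the AC only and 13.1% in the VG only. None of the 3 pan-H3Kac lists (whole embryo, AC and VG) covered 68 kept peaks (16.8%). At the other end, 95 (23.5%) were found in all 10 other lists. The pan-H3Kac summits stood apart from those of Hdac1, at median distances of 415 bp in whole embryos, 406 bp in the AC and 409 bp in the VG, against 40.5 bp for Hdac2 at st10.5.

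Nearly all kept peaks were also Hdac1 peaks in embryos exposed to TSA. At st9, 97.5% were in the DMSO list and 98.0% in the TSA list, and at st10.5 98.3% and 99.3%. The same 4 shares were 97.3%, 93.8%, 98.6% and 97.7% for peaks shared with st9 only. The fold with TSA was lower than with DMSO at 335 kept peaks at st9 and at 272 at st10.5, with median ratios of 0.724 over 393 peaks and 0.871 over 395 peaks. The median ratios of the st9 and st10.5 class were 0.650 and 0.717. Each of these lists is a single library, so the ratios compare libraries and have no replicate check.

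Genes were assigned to a kept peak when their span held its summit or, failing that, when they were the nearest within 10 kb. By this rule 354 peaks had a gene, 50 had none, and 318 genes were linked, of which 298 were protein-coding and 14 long non-coding. A wider count took every kept summit within 10 kb of a gene span, whichever gene the peak was assigned to. By this count the ephrin ligand efna1 had 4 kept peaks, with folds from 7.92 to 19.2 at st10.5. Within 10 kb of 7 other genes lay 3 entries each. These were the homeobox genes mix1 and bix1.2, which share their peaks, the POU genes pou5f3.2 and pou5f3.3, which also share theirs, the Notch modifier lfng, the axon guidance receptor robo3, and LOC100486443. No kept peak was assigned to bix1.2 by the nearest-gene rule, nor to dlx6, which had 2 within 10 kb. All later counts of genes of kept peaks use the nearest-gene rule and leave these genes out.

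Regulators of the germ layers were common among these genes, as among genes of the peaks shared with st9 only or found at st10.5 alone. The lists were put together from textbook roles and were chosen with earlier results known. They hold genes that the paper reports as changed by both inhibitors, such as snai1, hhex, irx2 and foxi4.2. They also hold genes where it measured Hdac1 by ChIP-qPCR, such as sp8. The counts here, and those per list below, are therefore descriptions. Kept peaks marked 13 of 40 ectoderm regulators (32.5%), 11 of 41 mesoderm and organizer regulators (26.8%), 7 of 37 endoderm regulators (18.9%), 5 of 19 maternal transcription factors (26.3%) and 7 of 45 genes of BMP, Nodal and Wnt signalling (15.6%). On a list of 35 chromatin regulators (deacetylases, corepressors, acetyltransferases and related genes) they marked 1, tet3. They marked 1 of 15 housekeeping genes (h3-3a) and 298 of 21826 protein-coding genes in all (1.37%). Peaks shared with st9 only marked 26 of the 40 ectoderm, 25 of the 41 mesoderm and organizer and 21 of the 37 endoderm regulators. They marked 2086 of the 21826 protein-coding genes, and a gene can count in more than 1 class. For peaks at st10.5 alone the numbers were 35, 34, 29 and 8909. Listed genes were linked to 54 distinct kept peaks, of which 49 were in the Sox3 list. Acetylation covered 23 of the 54 in both explants, 20 in the VG only, 6 in the AC only and 5 in neither.

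Sites at ectoderm genes ranged from above the upper quartile of the kept peaks' st10.5 fold to below its lower quartile. In sp8, a zinc finger factor of limb and forebrain, the Hdac1 fold went from 6.95 at st8 through 10.9 to 16.02 at st10.5 (chr6:39202035-39204910). Near foxi4.2, a forkhead gene of the early ectoderm, it was 6.51, 10.6 and 15.1 (chr1:18308373-18309035). Both sites were acetylated in AC and VG. The site in grhl3, a Grainyhead gene of the epidermis, had folds of 6.03, 7.57 and 5.41 (chr2:80953189-80953872). That in lhx5, a LIM homeobox gene of the anterior neural plate, had 6.33, 6.28 and 9.52 (chr1:146146301-146148894). Both were acetylated in the AC only, as was the site near foxi1 (chr3:32481348-32482373).

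Several mesoderm and endoderm genes had sites acetylated in the VG only. A site 5511 bp from snai1, a zinc finger repressor of mesoderm, had Hdac1 folds of 9.50, 8.64 and 14.3 (chr10:36192980-36194029), and a second one, 3717 bp away, had 8.26, 14.3 and 6.08 (chr10:36194650-36195682). Within gata4, a zinc finger factor of endoderm, the folds were 7.46, 18.1 and 13.1 (chr5:150631987-150633890). At hhex, a homeobox gene of anterior endoderm, they were 5.60, 6.84 and 7.14 (chr7:25586584-25587243). Within foxa4, a forkhead gene of organizer and endoderm, they were 7.29, 8.93 and 4.99 (chr4:38404703-38405633). All 5 sites were in the Sox3 list and acetylated in the VG only. A site in smad7, which encodes an inhibitory Smad of the BMP and Nodal pathways, had 5.39, 7.48 and 14.8 and was acetylated in both explants (chr1:205593260-205597324).

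Most genes of kept peaks were expressed at st10.5. In the control explants, 81.9% to 85.6% of the protein-coding ones had a mean of at least 1 TPM. The shares were 74.4% to 81.2% for genes of the other classes and 34.8% to 36.8% for genes to which no st10.5 peak was assigned. Genes of kept peaks had median levels of 22.5 TPM (AC DMSO), 25.9 TPM (VG DMSO), 20.3 TPM (AC water) and 24.8 TPM (VG water). In these bulk samples, fewer cells of a type and less RNA per cell cannot be told apart, and the replicates are separate samples by their labels.

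Genes of kept peaks often differed between AC and VG. A gene was called when its p from edgeR's quasi-likelihood test, adjusted by Benjamini-Hochberg, was below 0.05 and its levels differed by more than 2-fold. In the DMSO controls, 65 of 293 tested genes (22.2%) were higher in the AC and 64 (21.8%) in the VG, against 9.66% and 12.1% of all 15232 genes tested. In the water controls, 49 of 297 (16.5%) and 60 (20.2%) were called, against 6.05% and 8.89% of all 15166. For genes of peaks shared with st9 only, the shares were 21.5% higher in the AC and 10.2% in the VG with DMSO, and 14.97% and 10.1% with water. Every called gene of a kept peak had TPM ranges that did not overlap between AC and VG. The call already asks for a difference of more than 2-fold, so this is no separate support. The share among all called genes was not computed. Leaving out 1 library gave 86 to 112 calls with DMSO in place of 129. With water it gave 70 without the first AC library, 71 without the second and at most 79, in place of 109.

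Among genes higher in the AC were known regulators of ectoderm, though not every listed one. Of the 13 ectoderm regulators of kept peaks, 6 were higher in the AC with DMSO (foxi1, foxi4.1, foxi4.2, grhl3, irx2 and lhx5) and 3 in the VG (irx3, otx2 and zic2). With water the same 6 were higher in the AC and 2, irx3 and otx2, in the VG. On the whole list, 21 of 40 were higher in the AC and 7 in the VG with DMSO, and 20 and 8 with water. The TPM of lhx5 was 335 and 201.95 in the AC DMSO libraries and 0.730 and 0.460 in the VG DMSO libraries, a log2 difference of 9.04 ± 0.48 (SE, adjusted p = 0.000144 by edgeR). That of grhl3 was 339 and 278 in the AC and 2.72 and 2.53 in the VG (7.12 ± 0.39, adjusted p = 0.000157). In the water controls grhl3 was at 282 and 274 TPM in the AC and 4.83 and 6.72 in the VG (5.67 ± 0.27, adjusted p = 0.000107). The remaining named genes included foxi4.2, with 1204 and 792 TPM against 44.6 and 25.5 in the DMSO libraries. LOC101730723, which holds a kept peak with a fold of 20.3, had 228 and 188 TPM against 2.61 and 1.01. Genes for general cell functions were also called, such as ezr, which encodes ezrin (26.6 and 16.2 against 0.170 and 0.120), and ucp2, a mitochondrial carrier (1023 and 816 against 81.2 and 122). The others named by the rule were rbm47, map2k6, sox15 and LOC116406756.

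Among genes higher in the VG were regulators of endoderm and mesoderm. The TPM of gata4 was 1.16 and 2.49 in the AC DMSO libraries and 660 and 642 in the VG DMSO libraries, a log2 difference of −7.90 ± 0.46 (SE, adjusted p = 0.000189 by edgeR). In the water controls it was 0.970 and 1.01 in the AC and 1002 and 883 in the VG (−9.53 ± 0.47, adjusted p = 0.000111). For hhex the DMSO values were 0.480 and 0.880 against 164 and 250 TPM (−7.85 ± 0.43). For mix1, a Mix-type homeobox gene that Nodal signals induce, they were 15.6 and 19.7 against 1101 and 956. The level of snai1 was 18.6 and 19.1 against 240 and 277, that of otx2, a homeobox gene of the head and anterior endoderm that stands on the ectoderm list, 18.2 and 7.96 against 342 and 487, and that of gata5 0.980 and 1.15 against 61.0 and 76.1. The calls also held genes with no list entry, such as tmcc1 (14.1 and 10.8 against 335 and 336) and the kinase gene camk2d (11.99 and 12.03 against 177 and 172). All 7 listed endoderm genes of kept peaks were called higher in the VG with DMSO, as were 33 of the 36 tested on the whole list, and none was higher in the AC. With water 6 of the 7 were called, all but otx1, and 32 of the 35 tested on the whole list. Of the 11 mesoderm and organizer regulators of kept peaks, 8 were higher in the VG with DMSO and 1, cdx2, in the AC. On that whole list 21 of 39 were higher in the VG and 4 in the AC. With water these counts were 8 and 0 of 11, and 22 and 1 of 39.

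The tissue in which the peak was acetylated went with the tissue in which the gene was higher. Of 50 tested genes whose kept peaks were all acetylated in the AC only, 20 (40.0%) were higher in the AC with DMSO and 7 in the VG, with a median log2 difference of 0.85. Of 46 with VG-only peaks, 3 were higher in the AC and 21 (45.7%) in the VG, with a median of −0.89. Genes of peaks acetylated in both (118) had 27 and 17 calls and a median of 0.33, and those of peaks acetylated in neither (63) had 10 and 12 and a median of 0.10. In the water controls the medians were 0.56 (AC only), −1.34 (VG only), 0.32 (both) and 0.07 (neither), and 17 of 50 AC-only genes were higher in the AC and 22 of 45 VG-only genes (48.9%) in the VG. The water explants share no RNA library with the DMSO explants, and the acetylation lists came from separate DMSO explants. By Sox3, 50 of 196 genes of peaks with Sox3 were higher in the AC with DMSO and 46 in the VG, against 15 and 13 of 90 without. Of all genes tested, 9.66% were higher in the AC and 12.1% in the VG with DMSO, and 6.05% and 8.89% with water. Genes of the other peak classes were not split by acetylation or Sox3, so whether this is particular to the kept peaks was not tested.

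**Figure D3:**
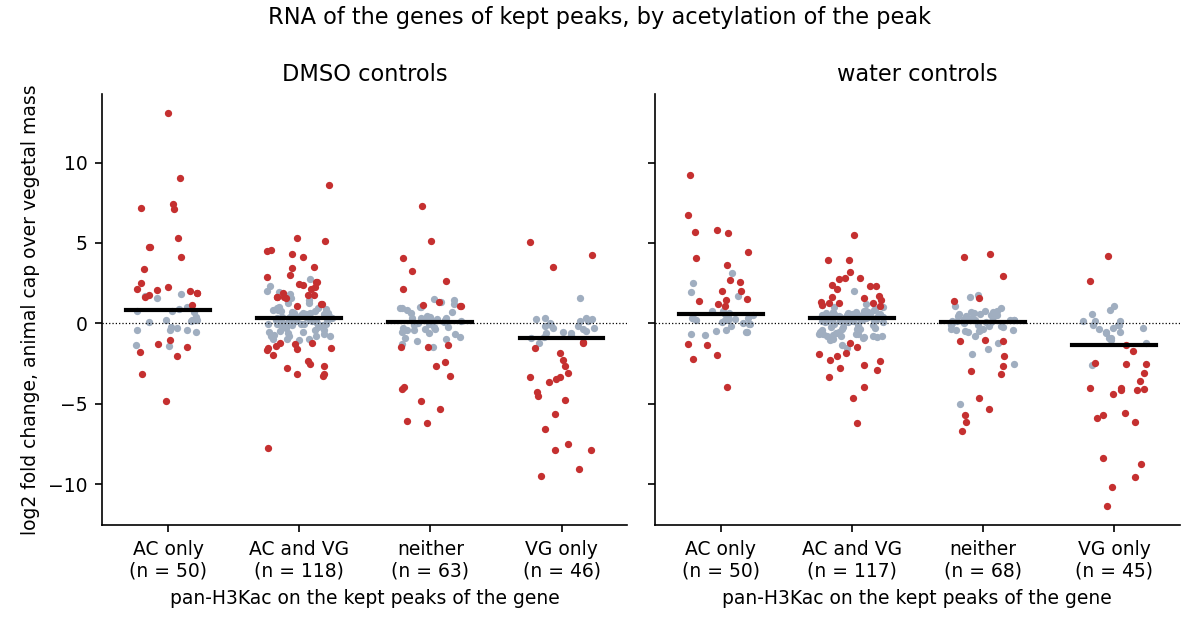
Log2 difference in RNA between AC and VG (vertical axis) of genes grouped by the explants in which their kept peaks are acetylated (horizontal axis), in the DMSO and water controls, with 1 point per gene (red, called), and the median as a bar. The topmost point with DMSO, foxi1, rests on VG libraries with 0 counts. The medians are 0.85 and 0.56 for genes of AC-only peaks and −0.89 and −1.34 for genes of VG-only peaks.

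TSA changed some of these genes in the AC, in both directions. Of 293 tested, 13 (4.44%) rose and 14 (4.78%) fell against DMSO, while 1.29% of all genes tested rose and 1% fell. For genes of peaks shared with st9 only, 1.42% rose and 3.71% fell, and for genes to which no st10.5 peak was assigned 0.95% and 0.30%. The median log2 change was −0.09 for genes of kept peaks and 0.00 for all genes. All 27 called genes had TPM ranges that did not overlap, which the call makes likely and which is no separate support. The number of calls dropped when any library was left out: 2 remained without the first AC DMSO library, 10 without the second, 6 without the first AC TSA library and 8 without the second, each with the lone library taken to vary like the other groups. Marker levels moved with TSA in the AC. The 7 AC markers summed to 1921 to 2970 TPM with DMSO and 521 to 1106 with TSA, the 9 endoderm markers to 105 to 110 and 243 to 474, and the 7 mesoderm markers to 21.8 to 30.9 and 160 to 258. Some of these markers are themselves genes of kept peaks (foxi1, foxi4.2, grhl3, lhx5, gata4, gata5, foxa4 and fgf8). The sums are therefore not separate from the genes described here, and the part of a change in tissue composition was not tested.

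The genes that rose with TSA included regulators of mesoderm, endoderm and the forebrain. The TPM of snai1 was 18.6 and 19.1 in the AC DMSO libraries and 181 and 97.0 in the AC TSA libraries, a log2 change of 2.74 ± 0.25 (SE, adjusted p = 0.00756 by edgeR). The forebrain homeobox gene emx2 was at 1.32 and 1.76 TPM with DMSO and 21.7 and 20.5 with TSA (3.64 ± 0.36, adjusted p = 0.00876). The zinc finger gene insm2 was at 1.25 and 1.08 with DMSO and 22.4 and 10.6 with TSA (3.68 ± 0.45, adjusted p = 0.0156). In each case both TSA libraries lay well above both controls, and for snai1 the first TSA library stood above the second. Smaller levels were reached by hhex (0.480 and 0.880 to 5.30 and 4.49 TPM, 2.63 ± 0.37, adjusted p = 0.0230), still far below its 164 and 250 TPM in the VG. The forkhead gene foxc1 went from 2.41 and 2.26 to 12.3 and 10.2 TPM (2.16 ± 0.25, adjusted p = 0.0131). The protocadherin gene pcdh8.2 went from 0.260 and 0.290 to 8.33 and 3.43 TPM (4.19 ± 0.41, adjusted p = 0.00816). The others named by the rule were emx1l, atp1b1, epha4 and pax9, a paired box gene at 0.110 and 0.250 TPM with DMSO, from as few as 3 counts, and at 6.16 and 7.04 TPM with TSA.

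The genes that fell with TSA were largely regulators of ectoderm and signalling. The TPM of sp8 was 20.3 and 24.4 with DMSO and 5.12 and 4.19 with TSA (log2 change −2.52 ± 0.24 SE, adjusted p = 0.00789 by edgeR). That of smad7 was 56.0 and 57.0 with DMSO and 9.27 and 12.2 with TSA (−2.48 ± 0.28, adjusted p = 0.0130). That of grhl3 was 339 and 278 with DMSO and 110 and 47.5 with TSA (−2.11 ± 0.30, adjusted p = 0.0240). Treated libraries of all 3 genes lay below both controls. The Notch ligand gene dll1 was at 59.9 and 45.2 TPM with DMSO and 2.92 and 2.31 with TSA (−4.42 ± 0.62, adjusted p = 0.0226). The level of foxi4.2 went from 1204 and 792 to 295 and 177 TPM (−2.18 ± 0.33, adjusted p = 0.0274). Its neighbour foxi4.1 was at 9.51 and 11.7 TPM with DMSO and 0.100 and 0.130 with TSA, where it had only 2 counts in the lower library. The other genes named by the rule were otx2, ventx2.1, zeb2 and fgf8. Over the whole lists, 3 ectoderm regulators rose and 11 of 40 fell, 8 of 36 endoderm regulators rose and 1 fell, 9 of 39 mesoderm and organizer regulators rose and 3 fell, and 2 of 44 signalling genes rose and 12 fell. For genes of kept peaks alone the counts were 1 and 6 of 13, 2 and 0 of 7, 3 and 1 of 11, and 0 and 2 of 7. None of the 19 maternal transcription factors or the 34 tested chromatin regulators was called, and 1 of 15 housekeeping genes rose.

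**Figure D4:**
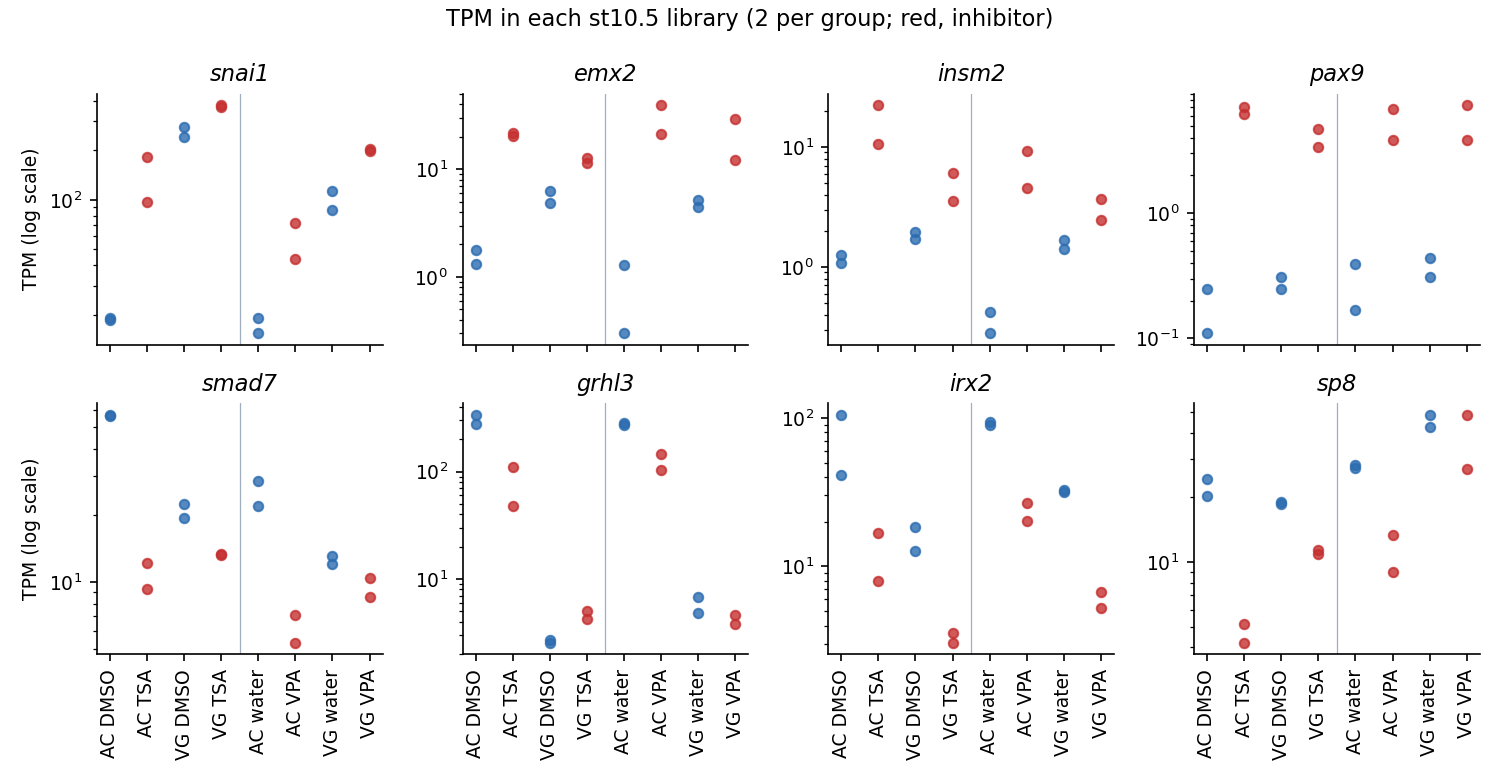
RNA level (TPM, log scale, vertical axis) of snai1, emx2, insm2, pax9, smad7, grhl3, irx2 and sp8 in each of the 16 explant libraries, grouped by explant and treatment (horizontal axis), with 1 point per library (red, inhibitor). For snai1 the AC libraries with TSA are at 181 and 97.0 TPM against 18.6 and 19.1 with DMSO, and for smad7 at 9.27 and 12.2 against 56.0 and 57.0.

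VPA, a structurally unrelated deacetylase inhibitor, also changed genes of kept peaks in the AC. Of 297 tested, 8 (2.69%) rose and 9 (3.03%) fell against water, while 1.36% of all genes tested rose and 0.745% fell. For genes of peaks shared with st9 only the shares were 1.202% and 2.02%. This count depended on single libraries: no gene was called without the first or the second AC water library or without the first AC VPA library, and 10 were called without the second AC VPA library. AC markers summed to 2289 to 2895 TPM with water and 1110 to 1213 with VPA, endoderm markers to 53.4 to 65.4 and 122.5 to 321, and mesoderm markers to 11.5 to 17.3 and 63.6 to 212. Their part in the changes was not tested.

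The homeobox gene en1 was at 1.14 and 1.54 TPM in the AC water libraries and 30.7 and 20.9 in the AC VPA libraries, a log2 change of 4.08 ± 0.42 (SE, adjusted p = 0.0257 by edgeR). For emx2 the values were 0.300 and 1.3 with water and 39.6 and 21.4 with VPA (5.05 ± 0.75, adjusted p = 0.0358). For snai1 they were 15.4 and 19.2 with water and 72.7 and 43.7 with VPA (1.56 ± 0.24, adjusted p = 0.0384). In all 3 the first VPA library stood above the second. The other genes that rose were insm2, emx1l, pax9, the Wnt ligand gene wnt5a and arx, whose peak had the third highest st8 fold (14.3). The Iroquois gene irx2 was at 93.4 and 89.7 TPM with water and 26.6 and 20.2 with VPA (−2.17 ± 0.21, adjusted p = 0.0235), and smad7 at 22.1 and 28.7 with water and 5.31 and 7.11 with VPA (−2.21 ± 0.22, adjusted p = 0.0242). The other genes that fell were grhl3, amotl2, stard13, slc17a9, alpl, umps and prss27. Of 40 ectoderm regulators on the whole list, 1 rose and 9 fell, and among the 13 of kept peaks 0 rose and 2 fell. On the other whole lists, 3 of 35 endoderm regulators rose and 0 fell. Of 39 mesoderm and organizer regulators 3 rose and 0 fell, and of 44 signalling genes 0 rose and 4 fell. For genes of kept peaks alone these counts were 0 and 0 of 7, 1 and 0 of 11, and 0 and 1 of 7.

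The inhibitor experiments share no library and were compared gene by gene. Of the 13 genes that rose with TSA in the AC, 5 were also called higher with VPA, and 12 had a positive VPA change. Of the 14 that fell, 3 were also called lower with VPA, and 13 had a negative VPA change. The genes called in both were emx1l, emx2, insm2, pax9 and snai1, which rose, and grhl3, irx2 and smad7, which fell. The same shares among all genes called with TSA were not computed, so these counts say nothing particular to the kept peaks.

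The genes that rose with an inhibitor in the AC were mostly those that the other experiment's controls showed higher in the VG. Of the 13 that rose with TSA, 10 (76.9%) were called higher in the VG than in the AC with water, including snai1, hhex, foxa4, foxc1, ptf1a, epha4 and pcdh8.2, and 0 were higher in the AC. The share among all 291 genes of kept peaks tested in both experiments was 20.6%, and among all genes that rose with TSA it was 37.2%. Of the 14 that fell with TSA, 6 were higher in the AC with water (foxi4.1, foxi4.2, grhl3, irx2, smad7 and ventx2.1, 42.9%) and 4 in the VG (fgf8, hes7.2, otx2 and skor1). Among all genes that fell with TSA, 32.7% were higher in the AC. For VPA, set beside the DMSO controls, 5 of the 8 that rose (62.5%) were higher in the VG and 1, en1, in the AC, against 21.99% higher in the VG among genes of kept peaks tested in both and 30.2% among all genes that rose with VPA. Of the 9 that fell, 5 (55.6%) were higher in the AC and 1, stard13, in the VG, and among all genes that fell with VPA 49.1% were higher in the AC.

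By acetylation, TSA in the AC gave 0 rises and 4 falls (8%) among 50 genes of AC-only peaks. Among 46 genes of VG-only peaks it gave 5 rises (10.9%) and 1 fall (2.17%). It gave 3 and 6 (2.54% and 5.08%) among 118 genes of peaks acetylated in both. Among 63 of peaks acetylated in neither it gave 5 and 2 (7.94% and 3.17%), while 1.29% of all genes tested rose and 1% fell. In the same order, VPA gave 0 and 3 of 50, 3 and 0 of 45, and 0 and 4 of 117. Among genes of peaks acetylated in neither it gave 5 and 1 of 68. Of all genes tested, 1.36% rose and 0.745% fell with VPA. By Sox3, TSA gave 9 rises and 13 falls among 196 genes of peaks with Sox3 (4.59% and 6.63%). It gave 3 and 1 among 90 without (3.33% and 1.11%). VPA gave 2 rises and 6 falls among 194 with Sox3 and 6 and 2 among 96 without. These are counts of a few genes each, and the differences between classes were not tested.

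In the VG no gene of a kept peak was called with either inhibitor by edgeR with its low-count filter and no replicate block, where 0% of all genes rose and 0.0131% fell with TSA and 0% rose or fell with VPA. At an unadjusted p under 0.05 there were 39 such genes with TSA (13.3%, against 4.13% of all genes tested) and 54 with VPA (18.2%, against 8.84%). DESeq2 called 14 with TSA (4.78%, against 1.33% of all genes) and 19 with VPA (6.40%, against 2.37%), and limma 0 and 1 (against 0.0328% and 0.0462% of all genes). Without the filter edgeR called 1 and 7, against 0.101% and 0.331% of all genes. With the replicate number as a block it called 13 (4.44%) and 2 (0.673%), against 1.73% and 0.171% of all genes. No label says that a replicate number marks a shared clutch. The absence of calls in the VG by the main fit, beside calls in the AC, does not show that the effects differ. With TSA the test of that difference was passed by 1 of the 293 tested genes of kept peaks, foxc1. How many of all genes passed it was not counted, so the 1 gene says nothing particular to the kept peaks.

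Some genes that were called in the AC had VG values that lay apart from their controls without passing the test. The TPM of pax9 in the VG was 0.250 and 0.310 with DMSO and 4.71 and 3.39 with TSA (adjusted p = 0.168 by edgeR), and 0.310 and 0.440 with water and 7.31 and 3.83 with VPA (adjusted p = 0.150). That of irx2 was 12.7 and 18.3 with DMSO and 3.56 and 3.05 with TSA (adjusted p = 0.251), and 31.9 and 32.8 with water and 6.77 and 5.23 with VPA (adjusted p = 0.121). In the VG as in the AC, treated libraries of pax9 were above both controls and those of irx2 below both. For emx2 the VG values were 4.83 and 6.25 with DMSO and 12.6 and 11.4 with TSA, a log2 change of 1.09 ± 0.33 (SE, adjusted p = 0.621), while its AC change was 3.64.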

How the data were processed

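Peak lists of ChIP-seq and gene tables of RNA-seq were used as deposited. The authors aligned reads with Bowtie2 2.4.4 (genome version v10.0), used SAMtools 1.10 and called peaks with MACS2 2.7.1 against input. The fold enrichment (a ratio) and the −log10 p and q of a peak are deposited values of that caller. The 3 stage lists of Hdac1 in untreated embryos and the Sox3 list passed an irreproducible discovery rate of 0.05 between replicates, the Hdac2 lists and the DMSO and TSA lists of Hdac1 are single libraries without it, and the Sox3 list holds the deposited combined score. The lists hold no read counts. The paper gives mapped reads for the explant pan-H3Kac libraries only, so the depth of the other lists is unknown. The authors estimated expected counts and TPM with RSEM 1.3.3 after STAR 2.7.3a, and the expected counts were rounded here.

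Peaks were compared with Python 3.11.15, with Wilson and Newcombe 95% intervals. Like fold means, in both classes, a st10.5 fold of at least the lower quartile of the kept peaks, and like width means between their width quartiles. Genes came from RefSeq spans of the assembly UCB_Xtro_10.0, in which all 318 genes had a row in the RNA tables. Per experiment, 8 libraries were fitted with edgeR 4.0.16 in R 4.3.3 (TMM, filterByExpr, quasi-likelihood, 1 mean per group, no replicate block), and p-values were adjusted over all genes tested. Of the 318 genes, 25 (TSA) and 21 (VPA) did not pass the filter. Alternatives used DESeq2 1.42.0 and limma 3.58.1 on log2(TPM + 1) with a pseudocount of 1. The fit was tested on simulated data.

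Regions named are the 10 strongest kept peaks at st10.5, the 5 strongest at st8 and at st9, those of listed genes (a selection here) and genes with at least 3 kept peaks within 10 kb. Genes named per comparison are up to 10 per direction by adjusted p among those called with TPM ranges that do not overlap. The kept peaks, the gene lists and the tests were chosen with earlier results of these data known. Motifs were not analysed here.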

Additional observations from a re-analysis of the deposited data

Results flagged for a closer look

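The effect of TSA on foxc1, a forkhead gene of mesoderm with a kept peak at chr6:86658595-86661999 (Hdac1 folds 8.97, 5.77 and 10.3), differed between the explants. In the AC its level was 2.41 and 2.26 TPM with DMSO and 12.3 and 10.2 TPM with TSA. In the VG it was 23.2 and 27.5 TPM with DMSO and 13.4 and 12.7 TPM with TSA. The log2 change was 2.16 ± 0.25 (SE) in the AC and −0.98 ± 0.24 in the VG, where it was not called (adjusted p = 0.374 by edgeR). The test of the difference between the explants gave 3.14 ± 0.34 on the log2 scale, with an adjusted p of 0.0486 by edgeR. With VPA the same difference was 3.85 ± 0.73 with an adjusted p of 0.461. The treated AC and VG libraries with TSA lay close together, between 10.2 and 13.4 TPM.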

How the results depend on the processing

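None of the genes named by the rule, at most 10 per direction and comparison, changed direction under the alternatives run. Other called genes were not followed gene by gene. The Sox3, AC and VG share differences against the st9 and st10.5 class kept their sign. The uncalled difference in whole-embryo pan-H3Kac between the kept peaks and the st9 and st10.5 class (0.80 points) turned to −3.21 points with the fold limit on that class alone and to −0.54 points between the width quartiles, with intervals that hold 0. Keeping only the stronger peaks, with a fold over the list's median, left 168 kept peaks, and changed their shares to 100% (Hdac2 st9), 78.0% (Sox3), 64.3% (whole-embryo pan-H3Kac), 44.0% (AC), 48.8% (VG) and 97.6% (Hdac1 with TSA, st10.5). A −log10 q of at least 10 gave 98.2% (Hdac2 st9), 98.5% (Hdac2 st10.5), 93.5% (Hdac1 with TSA, st9) and 94.2% (Hdac1 with TSA, st10.5). When 50% of the smaller peak had to be shared, the shares were 63.4% (whole-embryo pan-H3Kac) and 48.6% (AC), and a summit inside the other peak 63.6% (whole embryo). Between the width quartiles, chosen after seeing the data, the shares were 100% (Hdac2 st9), 99.01% (Hdac1 with DMSO, st9), 99.5% (Hdac1 with TSA, st9) and 100% (Hdac1 with DMSO, st10.5). The lower AC acetylation than in the st9 and st10.5 class had an interval that held 0 under 4 of these settings and in the like-fold comparison: −3.64 points (50% overlap), −4.54 (summit inside), −5.52 (above the median) and −4.49 (−log10 q). It was −9.85 with the fold limit on that class alone and −9.23 between the width quartiles, clear of 0.

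The counts of called genes depended on the tool. DESeq2 called 52 genes with TSA and 46 with VPA in the AC (17.7% and 15.5%, against 6.24% and 5.93% of all genes tested). In the VG it called 14 and 19 (4.78% and 6.40%, against 1.33% and 2.37%). Without the filter on low counts, 32 genes were called with VPA in the AC (10.2%, against 2.44% of all genes). In the VG the unfiltered fit called 1 with TSA and 7 with VPA (0.318% and 2.24%, against 0.101% and 0.331%). There limma called 1 with VPA (0.337%, against 0.0462%). Leaving out 1 library gave 2 to 10 calls with TSA in the AC, 0 with TSA in the VG, 0 to 10 with VPA in the AC, 0 with VPA in the VG, 86 to 112 between AC and VG with DMSO and 70 to 79 with water. The cause of these shifts was not tested, except that fewer libraries leave fewer degrees of freedom.

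With the replicate number as a block within each tissue, edgeR called 69 genes of kept peaks with TSA in the AC and 13 in the VG. These were 23.5% and 4.44% of those tested, against 10.99% and 1.73% of all genes. With VPA it called 42 in the AC and 2 in the VG (14.1% and 0.673%, against 5.43% and 0.171%). Between AC and VG it called 149 with DMSO and 117 with water (50.9% and 39.4%, against 34.6% and 19.1%). Deviations of same-numbered libraries correlated at 0.800 and 0.775 with TSA (AC and VG) and 0.490 and 0.624 with VPA, each over 2 pairs, and no label says that a number marks a shared clutch. The motif search and its shorter window were not run, since no genome sequence was used here.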
